A study of Sus scrofa with 12 samples.

Results

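The respiratory chain genes of pig induced pluripotent stem (iPS) cells were followed in both genomes that encode them. Members were chosen by symbol: the 13 protein-coding genes of mitochondrial DNA (ND1 to ND6, ND4L, COX1 to COX3, ATP6, ATP8 and CYTB), and the nuclear genes whose symbols start with NDUFA, NDUFB, NDUFC, NDUFS, NDUFV, UQCR, COX4 to COX8 or ATP5, or are SDHA to SDHD. This gave 86 of 24358 genes, of which 13 were mitochondrial and 73 nuclear. RNA sequencing was done on 12 libraries in 4 groups of 3. WT libraries were unedited PC-iPS cells, a pig iPS line derived from pericytes, and knock-in libraries were PC-iPS cells that carry a tdTomato reporter at NANOG and were positive for it. The knock-in cells came from 3 lines that were transfected and sorted separately and are mixed populations rather than clones. The study cultured PC-iPS cells in a medium with LIF and selected the transfected cells with puromycin and blasticidin. Activin A and SB431542 libraries were reporter cells grown in medium without LIF and given the SMAD-activating cytokine Activin A or SB431542, an inhibitor of its receptor. Labels do not say that libraries of one group came from separate cultures beyond the knock-in lines, so p-values measure the spread between these libraries.

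Oxidative phosphorylation uses complexes I to IV to pass electrons from NADH and succinate to oxygen, and complex V, the ATP synthase, to turn the resulting proton gradient into ATP. Complexes I, III, IV and V are built from subunits of both genomes, whereas every subunit of complex II is nuclear. The mitochondrial genes are transcribed as long polycistronic RNAs from both strands and then cut apart, and all of them except ND6 are read from one strand. Pluripotent cells are known for relying heavily on glycolysis.

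Expression was given as FPKM, fragments scaled to the length of the gene and the mapped reads of the library, so that levels can be compared between genes. Knock-in against WT and Activin A against SB431542 were tested separately, and levels from the 2 tables are set side by side without a test. Total depth is unknown. Relative depth, read from the spacing of low values, was 0.732 to 1 in the knock-in and 0.566 to 0.633 in WT, as shares of knock-in 1. It was 0.973 to 1.141 in the treated libraries relative to Activin A 1, which is a separate scale. NANOG itself was at 52.0 to 101 FPKM in the knock-in and at 9.71 to 27.55 in WT. Sums of marker lists were higher in the knock-in than in WT. The summed FPKM of 10 pluripotency genes was 276 to 505 in knock-in and 115 to 142 in WT libraries, with ZFP42 and TFCP2L1 under 0.1 FPKM in all of them. Sums of 10 fibroblast and feeder genes were 68.1 to 98.0 against 37.3 to 46.9, and sums of 9 pericyte genes 50.2 to 52.1 against 29.2 to 31.9. At a limma adjusted p of at most 0.05, NANOG, SOX2 and LIN28A rose among 7 tested pluripotency genes. DCN rose among 8 tested fibroblast and feeder genes, and PDGFRB and ACTA2 among 8 tested pericyte genes, where 4.88% of all genes rose. Log2 fold changes were above 0 for 5, 6 and 7 of these tested genes, beside 49.8% of all genes. NANOG, whose reporter marks the knock-in cells, is part of the first sum. Per the study's methods, dissociated cells were first plated so that feeders would attach, and RNA was taken from the cells still in suspension. The part of these lists in the differences below was not tested, and in such bulk RNA fewer cells of a type and less RNA per cell cannot be told apart.

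Transcripts of the mitochondrial genes were less abundant, relative to those of the nuclear genes, in the knock-in libraries than in WT. The higher mitochondrial share in WT was already known when these genes were chosen. The shares, ratios and mitochondrial calls below therefore describe that difference and are not independent support for it. The 13 mitochondrial genes held 15.8%, 13.95% and 16.4% of all FPKM in WT libraries 1 to 3, and 10.75%, 11.5% and 9.71% in knock-in libraries 1 to 3. The 73 nuclear genes went the other way, with 1.34%, 1.32% and 1.25% in WT and 1.56%, 1.47% and 1.46% in the knock-in. Neither share overlapped between the groups. The ratio of mitochondrial to nuclear FPKM was 11.8, 10.53 and 13.1 in WT and 6.90, 7.81 and 6.64 in the knock-in, a difference of -0.73 in its mean log2. Under quantile normalization the difference was -0.20 and the mean mitochondrial shares were 12.1% in the knock-in and 13.2% in WT. Both sums entered that difference. Summed mitochondrial FPKM was 39998 ± 3750 (SD, n = 3) in the knock-in against 58981 ± 5420 in WT, and summed nuclear FPKM was 5621 ± 259 against 5014 ± 230.

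**Figure D1:**
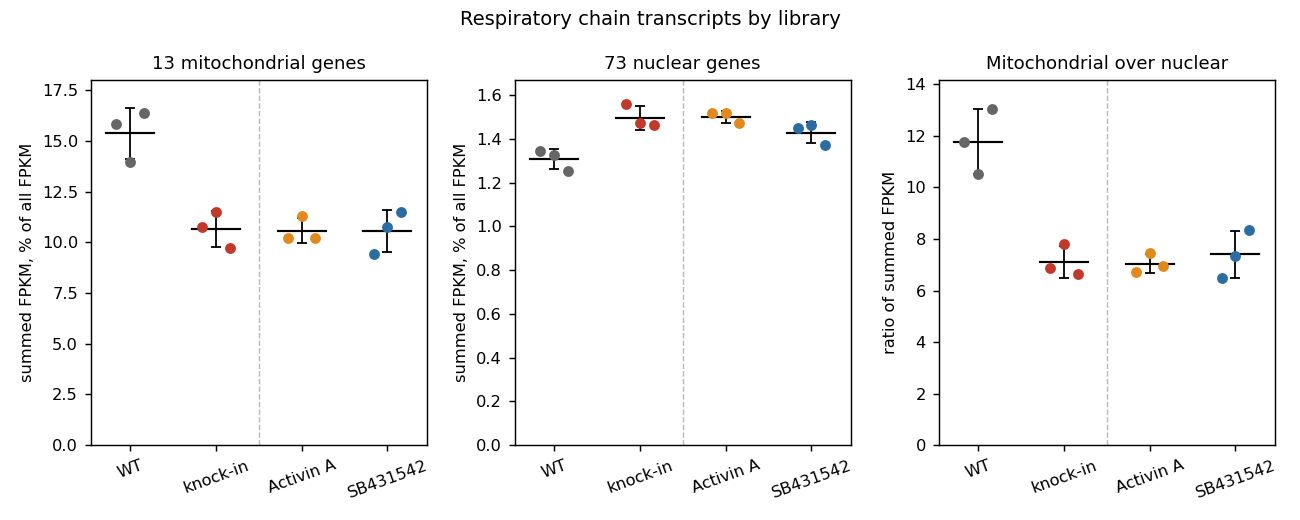
Summed FPKM of the 13 mitochondrial and 73 nuclear genes as a percentage of all FPKM, and the ratio of the sums, for each library (points) with group mean and SD (lines and bars, n = 3). The dashed line separates the 2 tables; WT has the highest mitochondrial share and ratio (11.8 on average, against 7.12 in the knock-in), while the Activin A and SB431542 libraries overlap in both.

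The ratio was lower in the knock-in for each complex that both genomes encode. Its mean log2 fell by 0.73 for complex I, by 0.65 for complex III, by 0.78 for complex IV and by 0.63 for complex V, and in none of the 4 did the groups overlap. Activin A and SB431542 libraries, all from reporter cells, had ratios of 6.72, 7.45 and 6.97, and of 6.51, 7.34 and 8.36, which overlap. These 6 ratios lay within or close to the knock-in range and below every WT ratio. That comparison crosses tables and media with and without LIF, and was not tested.

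COX1 and ND6 were the mitochondrial genes that passed the test (limma, Benjamini-Hochberg adjusted p at most 0.05), and both were lower in the knock-in. Of all 14014 genes tested, 2.34% were lower at that threshold. COX1 (ENSSSCG00000018075, chrMT:6511-8055 in RefSeq's annotation of Sscrofa11.1) encodes the catalytic subunit of cytochrome c oxidase. Its FPKM was 10656, 9676 and 8362 in WT libraries and 6179, 4949 and 3651 in knock-in libraries. All 3 knock-in libraries were below all 3 WT libraries, and knock-in 3 was lowest. The log2 fold change, on the log2(FPKM + 1) scale used throughout, was -0.98 ± 0.22 (SE; limma adjusted p = 0.0402).

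ND6 (ENSSSCG00000018092, chrMT:14739-15266) encodes a membrane subunit of complex I and is the gene read from the opposite strand. FPKM of ND6 was 2978, 2432 and 3091 in WT and 1476, 1685 and 1414 in the knock-in. The groups were far apart, and the fold change was -0.89 ± 0.14 (SE; limma adjusted p = 0.0189). ND6 shares 17 bases with ND5 on the other strand, and how the counting treated strand is not given in the sources used here. Reads of this overlap, and any reads of the other strand's long RNA across ND6, therefore cannot be told apart from its own.

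All 13 mitochondrial genes had a fold change below 0, from -0.34 in ND2 to -0.98 in COX1, with a median of -0.50 where the median over all genes tested was -0.00. Under quantile normalization, which forces every library to the same set of values, 3 of the 13 were above 0 and the median was -0.24. The groups did not overlap for 8 of the 13 (COX1, COX2, COX3, ATP6, ND4, ND4L, ND5 and ND6), where 16.7% of all genes had a knock-in range wholly below WT. The 13 transcripts come from a few precursors and shared libraries, so they are not independent measurements.

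The other 6 genes without overlap did not pass. COX2, a copper-binding subunit of complex IV, was at 8493, 8013 and 9307 FPKM in WT and at 6070, 6211 and 5813 in the knock-in (fold change -0.51 ± 0.14 SE, limma adjusted p = 0.0676). COX3, the most abundant member in every group, was at 12893, 10588 and 12757 against 8646, 9162 and 8574 (-0.45 ± 0.16, limma adjusted p = 0.113). ATP6, the proton channel subunit of the ATP synthase, was at 3174, 2677 and 3447 against 2119, 2321 and 1897 (-0.55 ± 0.15, limma adjusted p = 0.0628). In each of these 3 every knock-in library was lower than every WT library. ND4, ND4L and ND5, membrane subunits of complex I, had fold changes of -0.50, -0.53 and -0.57 with limma adjusted p of 0.0876, 0.0762 and 0.0677. ATP8 and ATP6 share 43 bases, and ND4L and ND4 share 7, so their values are partly joint.

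ND1 and ND2 at the start of the map, CYTB at its end, and the short genes ND3 and ATP8 overlapped between the groups. ND1 was at 1678, 1146 and 1856 FPKM in WT and at 1241, 1418 and 990 in the knock-in, and its neighbour ND2 at 3929, 2499 and 3149 against 2411, 2994 and 2117. WT 2 lay among the knock-in libraries for both of these complex I subunits. CYTB, the mitochondrial subunit of complex III, was at 1770, 1677 and 2307 against 1528, 1688 and 1171, with WT 2 just under knock-in 2. Fold changes of ND1, ND2, ND3, CYTB and the ATP synthase subunit ATP8 ran from -0.34 to -0.39.

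**Figure D2:**
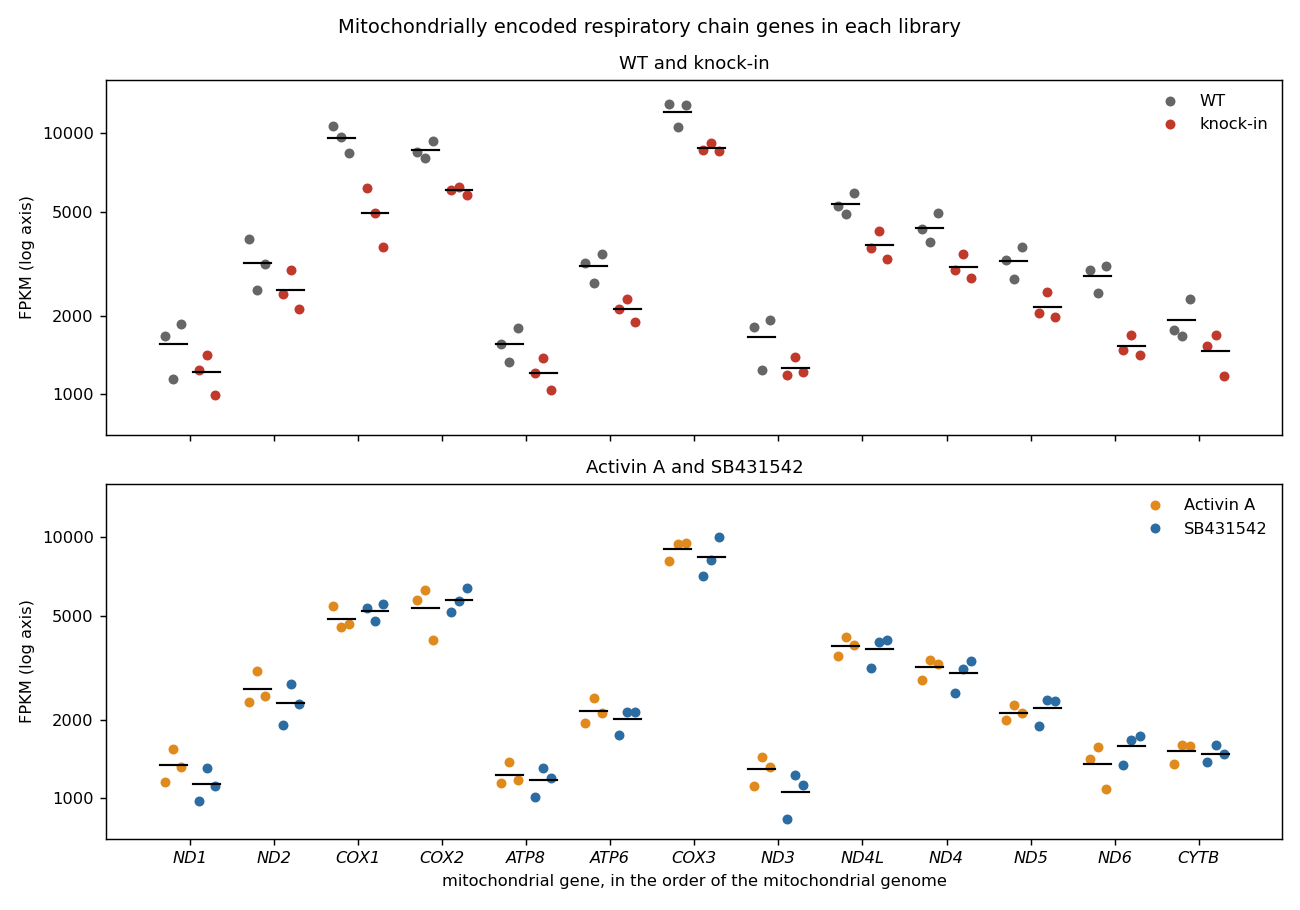
FPKM (log axis) of the 13 mitochondrial genes in map order, one point per library and a line at the group mean, with WT and knock-in above and Activin A and SB431542 below. In the upper panel COX1 and ND6 stand farthest apart (COX1 at 8362 to 10656 in WT and 3651 to 6179 in the knock-in), and in the lower panel every gene overlaps.

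Libraries differed together within each group. WT 2 was the lowest WT library for 12 of the 13 mitochondrial genes, and knock-in 3 was the lowest knock-in library for 12 of 13. Knock-in 2 was highest for 12 of 13. Within the mitochondrial pool, shares did not overlap between the groups for ND6, COX3 and ATP8. ND6 made up 4.82%, 4.61% and 4.95% of mitochondrial FPKM in WT but 3.62%, 3.89% and 3.94% in the knock-in. COX1 made up 17.3%, 18.4% and 13.4% against 15.2%, 11.4% and 10.2%, where WT 3 lay inside the knock-in range. The share of COX3 was 20.9%, 20.1% and 20.4% in WT and 21.2%, 21.2% and 23.9% in the knock-in. That of ATP8 was 2.53%, 2.51% and 2.883% against 2.96%, 3.17% and 2.886%, so that WT 3 and knock-in 3 nearly met.

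Nuclear members ranged widely in level. The symbol COX8H was at 0 in all libraries, COX7B2 was above 0 in 1 library, and COX6B2 stayed under 0.15 FPKM. These 3 fell below the filter in both comparisons, which left 70 of 73 nuclear members to be tested. ATP5F1A, the alpha subunit of the ATP synthase, was the most abundant nuclear member, with 448 ± 49.4 FPKM in WT and 480 ± 23.1 in the knock-in (SD, n = 3). The median of the 73 group means was 41.6 in WT and 45.8 in the knock-in, against 3192 and 2164 for the mitochondrial genes.

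In the knock-in, 12 nuclear members rose, 1 fell and 57 did not pass the test. Over all genes tested, 4.88% rose at the same threshold. Fold changes were above 0 for 50 of 70 nuclear members, where 49.8% of all genes were, and their median was 0.20. Knock-in and WT libraries did not overlap for 26 that were higher and 9 that were lower, beside 19% and 16.7% of all genes. At an unadjusted p of at most 0.05 there were 34 nuclear and 9 mitochondrial members, beside 28.6% of all genes. No member that passed reached a log2 fold change of 1, where 1.61% of all genes rose and 0.706% fell by at least that much. With FPKM rescaled to the genes that are not mitochondrial members, 8 rose and 44 of 70 were above 0, with a median of 0.19. That rescaling moved all genes, of which 562 of 14014 rose and 6384 were above 0, with a median of -0.04.

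The number of calls depended on single libraries. Without knock-in 1 no member passed, without knock-in 2 it was 1 nuclear gene that rose, and without knock-in 3 it was 3. Without WT 1 and without WT 2, 3 and 2 nuclear genes rose. Without WT 3, 12 rose and 4 fell. In these 6 fits ND6 passed without knock-in 3, WT 2 or WT 3, and COX1 only without WT 3. Over all genes the calls moved in the same way, from 684 higher and 328 lower to 124 and 32 without knock-in 1, and to 958 and 474 without WT 3. Directions were steadier. The median fold change stayed between 0.17 and 0.26 for nuclear and between -0.56 and -0.41 for mitochondrial members over these 6 fits.

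**Figure D3:**
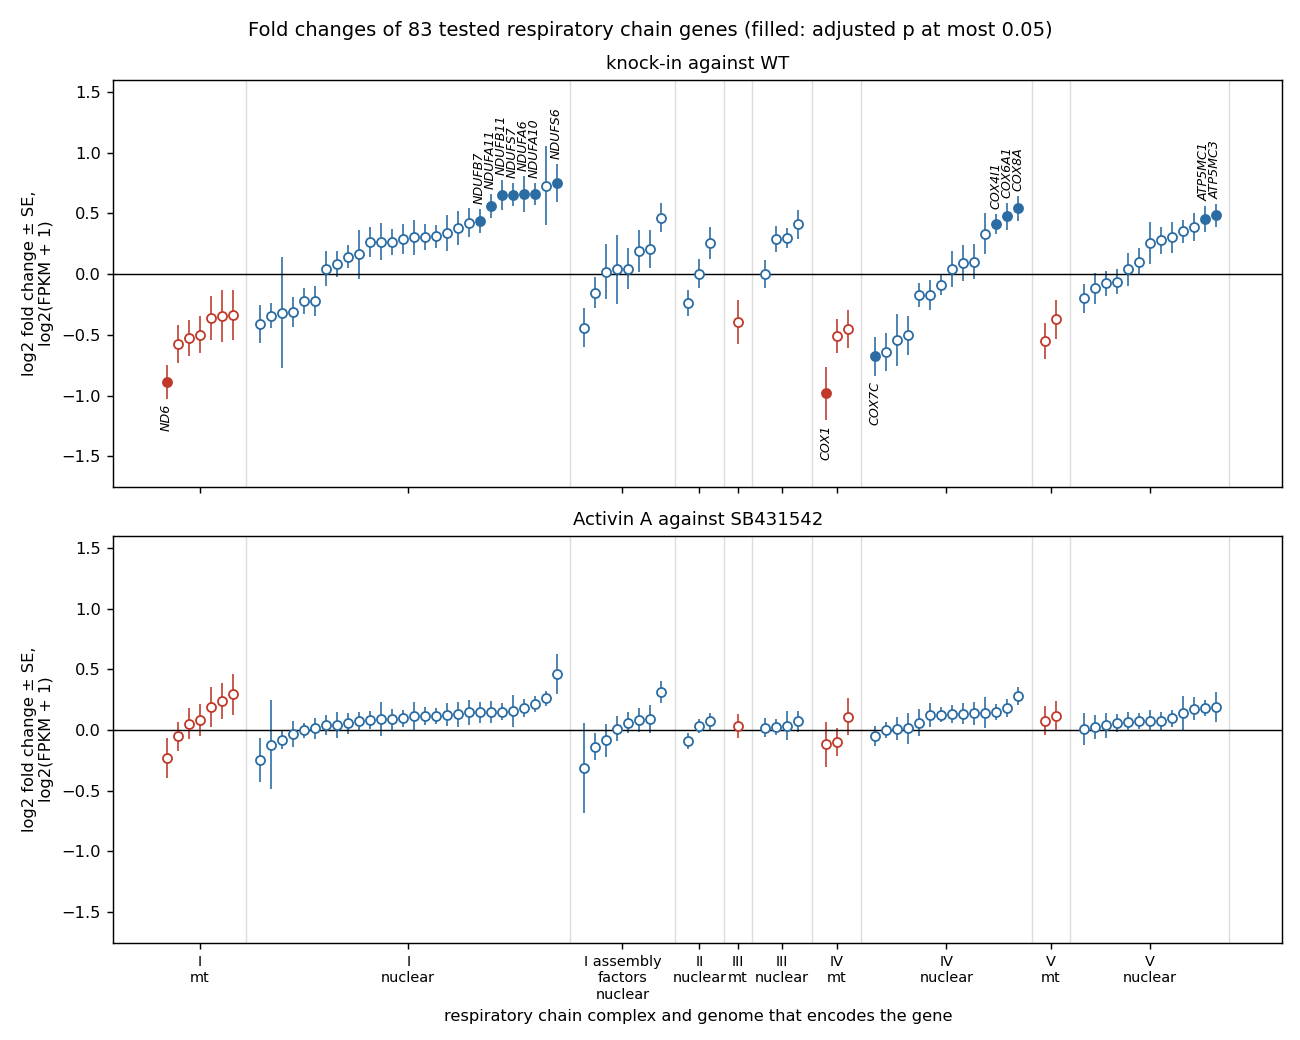
Log2 fold change with SE of the 83 tested members, grouped by complex and genome (red, mitochondrial; blue, nuclear), with those at an adjusted p of at most 0.05 filled and named. In the upper panel all 13 mitochondrial points lie below 0 and 50 of 70 nuclear points above it; in the lower panel no point is filled.

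Complex I, which takes electrons from NADH, held 7 of the 12 nuclear genes that rose. Of its 28 tested nuclear subunits, 7 rose, none fell and 22 had a fold change above 0, with a median of 0.30. Over all genes, 4.88% rose, 2.34% fell and 49.8% were above 0. NDUFS6 (ENSSSCG00000017114, chr16:78993909-79000001), a zinc-binding accessory subunit, had the largest rise. It was at 40.3, 51.5 and 59.8 FPKM in WT and at 94.4, 83.8 and 76.1 in the knock-in, with no overlap (fold change 0.75 ± 0.16 SE, limma adjusted p = 0.0361). NDUFA10 (ENSSSCG00000016349, chr15:138999174-139031892), another accessory subunit, was at 61.6, 67.9 and 68.2 against 109, 101 and 104. These libraries were tight within each group (0.66 ± 0.09, limma adjusted p = 0.0120), and NDUFA10 passed without each library in turn in 5 of 6 fits.

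NDUFS7 (chr2:77080311-77087141), a core subunit that binds an iron-sulfur cluster, rose from 22.4, 22.9 and 22.7 FPKM to 38.0, 37.2 and 33.6 (0.65 ± 0.10, limma adjusted p = 0.0155). It was the one among 7 nuclear core subunits of complex I that passed. NDUFA6 (chr5:6562074-6567321) rose from 13.2, 16.6 and 17.6 to 27.8, 26.4 and 22.2, and NDUFB11 (chrX:41770929-41773879) from 6.82, 7.20 and 7.84 to 12.4, 11.2 and 12.4. Neither overlapped between the groups. NDUFA11 (chr2:73131029-73137921) rose by 0.56 ± 0.10 and NDUFB7 (chr2:64718892-64723631) by 0.43 ± 0.10, both accessory subunits of the membrane arm.

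Other complex I subunits did not pass. NDUFS5, the most abundant nuclear subunit of complex I, was at 186, 176 and 156 FPKM in WT and at 140, 127 and 141 in the knock-in (-0.34 ± 0.10 SE, limma adjusted p = 0.0819), without overlap. Of the core subunits, NDUFS1, at 42.1, 40.2 and 37.9 against 37.8, 33.5 and 31.5, and NDUFV2, at 25.5, 22.7 and 20.1 against 16.4, 19.1 and 18.9, were also lower in every knock-in library. These 3 were the nuclear subunits of complex I wholly below WT, while 14 lay wholly above it, beside 16.7% and 19% of all genes. The core subunits NDUFS8, at 60.6, 56.3 and 55.6 against 75.2, 73.3 and 66.5, and NDUFV1, at 20.1, 17.8 and 18.5 against 23.8, 21.0 and 23.7, were among those above it that did not pass.

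A pair of complex I subunits was set by 1 library each. NDUFB10 was at 54.8, 47.1 and 52.5 FPKM in WT and at 75.6, 54.9 and 151 in the knock-in (0.73 ± 0.32, limma adjusted p = 0.187). Without knock-in 3 its fold change was 0.32, and Activin A 3 was as far apart, at 152 FPKM beside 56.3 and 57.5. NDUFB2 was at 6.63, 7.53 and 27.1 in WT, with WT 3 far above the others, and at 9.66, 8.93 and 7.90 in the knock-in. Of the 8 assembly factors of complex I named NDUFAF, none passed. Their median fold change was 0.04, from -0.44 in NDUFAF1 (12.1, 16.4 and 13.6 FPKM in WT, 8.81, 9.64 and 11.8 in the knock-in) to 0.47 in NDUFAF8 (13.3, 14.8 and 16.5 against 22.3, 19.0 and 21.4).

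Complex II, succinate dehydrogenase, and complex III, the cytochrome bc1 complex, held no member that passed; genes of these complexes that the symbol rule leaves out are described separately. SDHD, a membrane anchor and the most abundant of the 3 complex II members, was at 97.4, 95.7 and 75.5 FPKM in WT and at 94.2, 90.5 and 83.2 in the knock-in, a fold change of 0.00 ± 0.12. The summed FPKM of these 3 genes averaged 164 in both groups. All 4 nuclear members of complex III were at or above WT. UQCRC1, a core protein of the complex, was at 64.1, 49.0 and 59.5 against 73.3, 78.2 and 77.2 (0.41 ± 0.12 SE, limma adjusted p = 0.0753), and UQCRQ, the most abundant of these 4, at 89.8, 94.9 and 88.6 against 124, 113 and 98.2 (0.29 ± 0.11, limma adjusted p = 0.136). Both were higher in every knock-in library.

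Complex IV, cytochrome c oxidase, was split. Of its 14 tested nuclear members, 3 rose and 1 fell, beside 4.88% and 2.34% of all genes, and the median fold change was -0.02. COX4I1 (ENSSSCG00000029034), the common isoform of the largest nuclear subunit, was at 186, 177 and 189 FPKM in WT and at 250, 246 and 238 in the knock-in (0.41 ± 0.08 SE, limma adjusted p = 0.0330). COX8A (ENSSSCG00000013046), a small subunit and the most abundant nuclear member of the complex, rose from 246, 216 and 254 to 366, 324 and 352 (0.54 ± 0.10, limma adjusted p = 0.0293). COX6A1 (chr14:40408600-40410810) rose from 37.5, 45.7 and 40.2 to 61.2, 58.1 and 53.0. These 3 genes did not overlap between the groups.

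The small subunits COX7C and COX6C went the other way. COX7C (ENSSSCG00000040325, chr2:94345436-94347709) was the nuclear member that fell, from 49.1, 48.6 and 37.1 FPKM to 32.9, 23.4 and 26.9 (-0.68 ± 0.16 SE, limma adjusted p = 0.0488). COX6C (chr4:37074619-37089364) was at 76.8, 75.7 and 62.1 against 52.8, 48.1 and 36.5, also without overlap (-0.64 ± 0.16, limma adjusted p = 0.0522). The call of COX7C and its absence for COX6C rest on a narrow margin around the threshold. COX7A2L, a factor that helps join complexes III and IV, was at 106, 88.9 and 57.1 in WT and at 56.0, 51.1 and 60.3 in the knock-in, with WT 3 inside the knock-in range. COX5A, COX5B and COX7A2, other abundant nuclear subunits, had fold changes of 0.09, -0.09 and 0.33, and none passed.

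Isoforms of complex IV known from muscle, lung or low oxygen were rare beside their common partners. COX4I2 was at 0.09% of COX4I1 in both WT and the knock-in, and NDUFA4L2 at 0.33% and 0.23% of NDUFA4, which was matched by identifier. COX7A1 was at 2.16% ± 0.63 (SD, n = 3) of COX7A2 in WT and 1.86% ± 0.29 in the knock-in, which overlap. COX6A2 was the exception, at 8.57% to 14.3% of COX6A1 in WT and 5.16% to 5.57% in the knock-in. Its own FPKM was 4.82, 3.92 and 5.75 against 3.16, 3.24 and 2.84 (-0.50 ± 0.16 SE, limma adjusted p = 0.0965), while COX6A1 rose. COX7A2L was at 57.3% to 83.4% of COX7A2 in WT and at 34.2% to 44.0% in the knock-in.

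In complex V, 2 of 13 tested nuclear members rose and none fell, beside 4.88% and 2.34% of all genes, and the median fold change was 0.26. Both that rose encode the c subunit of the rotor ring. ATP5MC3 (ENSSSCG00000015973) was at 347, 342 and 331 FPKM in WT and at 510, 469 and 450 in the knock-in (0.48 ± 0.09 SE, limma adjusted p = 0.0296). ATP5MC1 was at 55.0, 63.1 and 61.8 against 91.0, 80.0 and 76.8 (0.45 ± 0.10, limma adjusted p = 0.0448). The third gene for the same mature protein, ATP5MC2, was at 404, 445 and 360 against 353, 317 and 383 and did not pass (-0.20 ± 0.12, limma adjusted p = 0.303). Because the 3 genes share mature coding sequence, reads could have been divided between them in counting. The alpha subunit ATP5F1A had a fold change of 0.10 ± 0.11, and the inhibitor ATP5IF1 was at 97.8, 98.0 and 89.9 in WT and at 128, 130 and 98.0 in the knock-in.

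**Figure D4:**
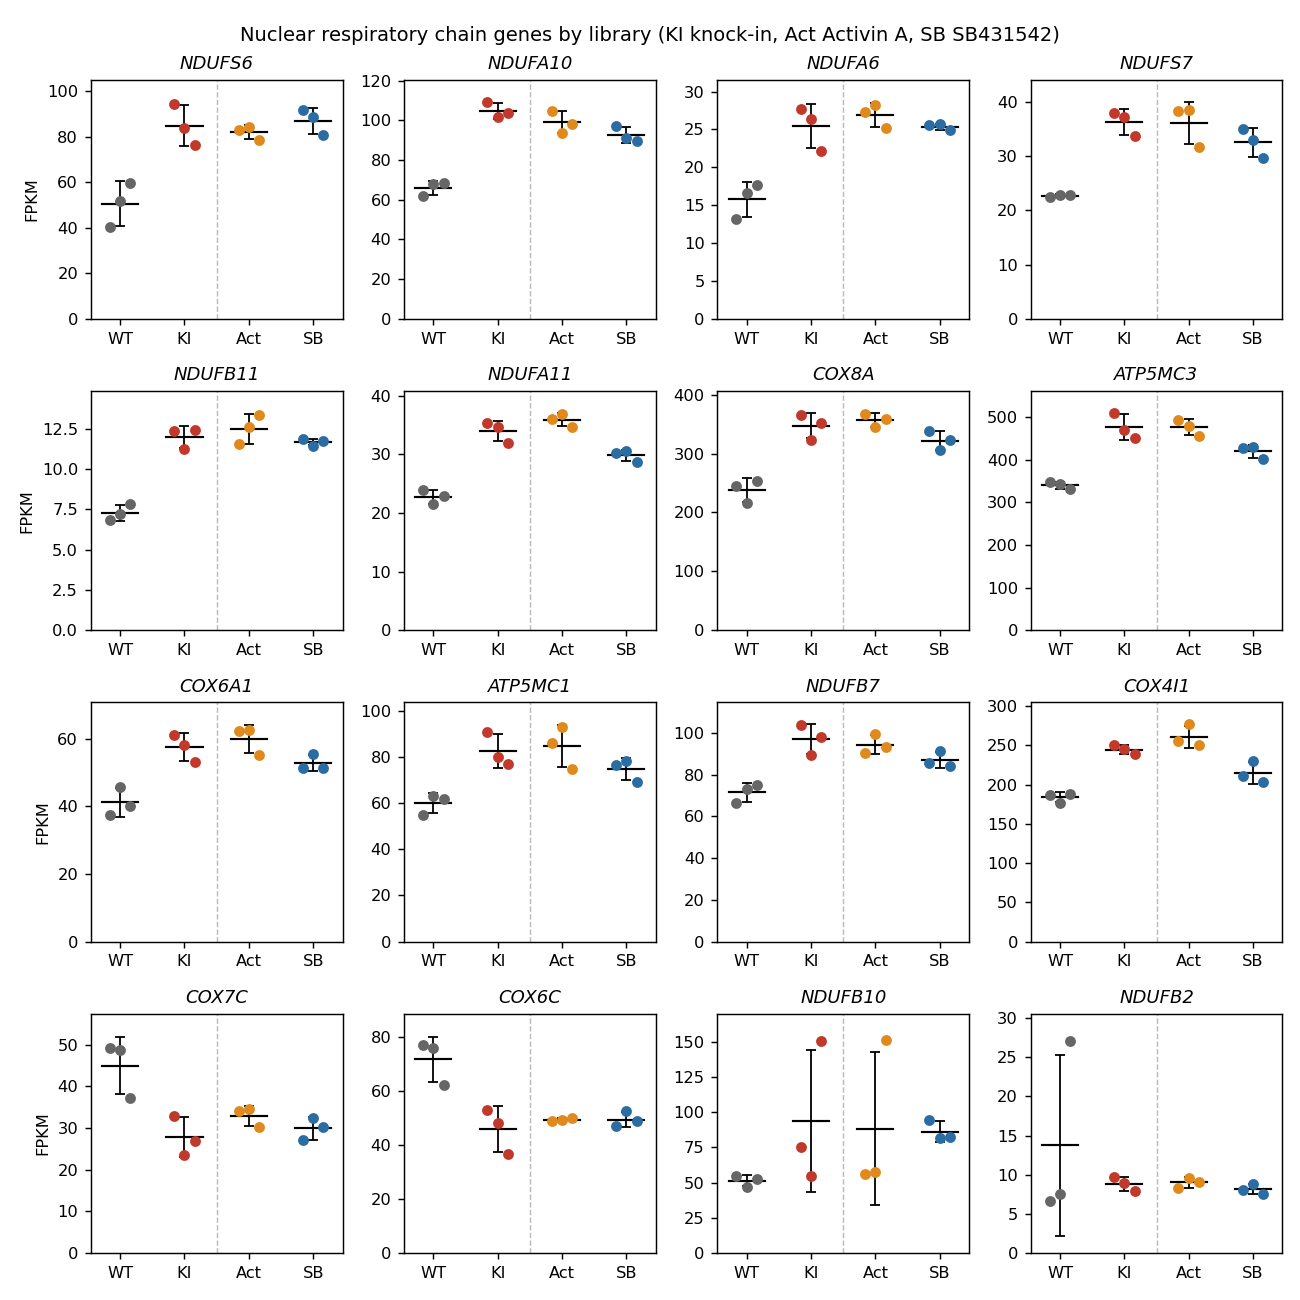
FPKM of the 13 nuclear members that passed in the knock-in against WT, and of COX6C, NDUFB10 and NDUFB2, in each library (points) with group mean and SD (n = 3); the dashed line separates the tables. NDUFA10 shows the separation at its clearest (61.6 to 68.2 in WT and 101 to 109 in the knock-in), and single high libraries set NDUFB10 and NDUFB2.

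Some genes that serve the chain without being members also rose. Among 34 measured assembly factors of complexes I to V outside the rule, 4 rose and none fell, where 4.88% of all genes rose, with a median fold change of 0.15. TMEM70, needed to assemble the ATP synthase, was at 48.1 ± 4.69 FPKM against 17.9 ± 1.79 in WT (SD, n = 3; 1.38 ± 0.12 SE, limma adjusted p = 0.00305). ATPAF2, another ATP synthase factor, rose by 0.77, SURF1, a complex IV factor, by 0.52 and COA3 by 0.51. Of 16 carriers and enzymes of ubiquinone synthesis, CYC1, the cytochrome c1 of complex III, rose by 0.66 and COQ7 by 0.64, while CYCS, cytochrome c itself, was at 80.8 against 80.1 FPKM.

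Genes that copy and transcribe mitochondrial DNA lay on both sides of WT. Of 16 tested, 1 fell and 15 did not pass, where 2.34% of all genes fell, with a median fold change of -0.07. TFAM, the main packaging and transcription factor of mitochondrial DNA, was at 31.2 ± 4.26 FPKM in the knock-in and 32.6 ± 4.62 in WT, and POLRMT, the mitochondrial RNA polymerase, at 19.4 ± 0.22 and 17.0 ± 2.19. MTERF2 was the gene that fell (-0.57 ± 0.13 SE, limma adjusted p = 0.0456). Besides MTERF2, the genes MTERF1, POLG2 and TFB1M lay wholly below WT without passing, with fold changes of -0.61, -0.60 and -0.11. POLG, at 0.32, TWNK, at 0.18, and RNASEH1 lay wholly above it without passing. Of all genes, 16.7% lay wholly below and 19% wholly above. Of 18 genes for processing and stability of mitochondrial RNA, 2 rose, where 4.88% of all genes did, and 8 were above 0, with a median of -0.05. SLIRP and TBRG4 rose by 0.54 and 0.56, and LRPPRC, the partner of SLIRP, was at 40.3 ± 2.93 against 50.4 ± 9.22. None of 11 tested biogenesis regulators passed, and PPARGC1A, a coactivator of mitochondrial biogenesis, stayed under 0.1 FPKM in all libraries.

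Activin A was set against SB431542 because the study asked which signalling pathway acts on NANOG in the reporter cells. No respiratory chain gene passed (limma, adjusted p at most 0.05) without pairing, and 1, COX4I1, passed with the replicate number as a block. Without the block, 0.0929% of all 13999 genes tested were higher and 0.0429% lower, or 0.0571% and 0.0357% with a log2 fold change of at least 1 as well. The study, testing counts with DESeq2, called many more genes at the latter thresholds. The lack of calls among members is therefore no evidence that they did not change. At an unadjusted p of at most 0.05 there were 7 nuclear members and no mitochondrial one, beside 12.8% of all genes. Nuclear members leaned to Activin A, with 60 of 70 fold changes above 0 and a median of 0.08, where 49.1% of all genes were above 0. With FPKM rescaled to the same total in each library, 51 of 70 were above 0 and the median was 0.05. That rescaling moved all genes, of which 6166 of 13999 were then above 0, with a median of -0.03. Summed nuclear FPKM was 5672, 5786 and 5526 with Activin A and 5282, 5457 and 5117 with SB431542, or 1.52%, 1.52% and 1.47% of all FPKM against 1.45%, 1.46% and 1.37%. The groups did not overlap in either. As a share of FPKM without the mitochondrial genes their ranges met (1.690%, 1.709% and 1.637% against 1.601%, 1.639% and 1.551%), and by all 3 measures Activin A was higher in each of the 3 same-numbered pairs. The groups did not overlap for 11 nuclear members that were higher and for none that were lower, beside 9.19% and 10.8% of all genes. Fibroblast and feeder sums were 88.0 to 124 with Activin A and 51.7 to 57.1 with SB431542, and pericyte sums 44.8 to 50.6 and 59.9 to 61.1, and their part was not tested.

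Between Activin A and SB431542 the ranges of all 13 mitochondrial genes overlapped. Their median fold change was 0.08, with 9 of 13 above 0, and it ran from -0.02 to 0.13 when single libraries were left out. ND3 had the highest, at 1117, 1440 and 1314 FPKM with Activin A and 835, 1226 and 1123 with SB431542 (0.29 ± 0.17 SE, limma adjusted p = 0.511, and 0.0701 with the replicate number as a block). ND1, at 1153, 1547 and 1322 against 976, 1310 and 1117, had 0.541 without and 0.0546 with the block as its limma adjusted p, and ND2 0.669 and 0.140. These 3 complex I subunits were higher with Activin A in each of the 3 same-numbered pairs. ND6 had the lowest, at 1413, 1577 and 1087 against 1346, 1674 and 1739 (-0.23 ± 0.16, limma adjusted p = 0.595). Activin A 3 was the low library for ND6, and likewise for COX2, at 4042 beside 5734 and 6292.

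COX4I1 had the lowest adjusted p of all members once libraries were paired. It was at 256, 277 and 250 FPKM with Activin A and at 211, 230 and 204 with SB431542, so that the groups did not overlap (0.28 ± 0.07 SE, limma adjusted p = 0.214). With the replicate number as a block its limma adjusted p was 0.0445. It was the single call among 70 nuclear and 13 mitochondrial members in that fit, where 233 of all 13999 genes were higher and 170 lower. NDUFA11, at 36.1, 36.9 and 34.7 against 30.2, 30.6 and 28.7, was also higher in every Activin A library (0.26 ± 0.07, limma adjusted p = 0.201, and 0.0715 with the block). ATP5MC3 was at 492, 480 and 455 against 428, 430 and 403. NDUFAF8 (0.31 ± 0.09) and NDUFC2 (0.21 ± 0.06), among the 5 largest nuclear fold changes, did not overlap either. NDUFS4, an accessory subunit of complex I, had the largest fold change (0.46 ± 0.17), but its groups overlapped at 25.4, 39.4 and 32.0 against 25.9, 20.9 and 22.0.

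Some of the 5 lowest nuclear fold changes rested on Activin A 3. NDUFAF2, an assembly factor, was at 6.30, 5.23 and 1.84 FPKM against 4.83, 7.25 and 4.17 (-0.31 ± 0.37 SE), and its fold change was 0.10 without Activin A 3. NDUFC1, a complex I subunit, was at 9.88, 9.30 and 5.92 against 10.6, 9.69 and 9.51 (-0.25 ± 0.18), and -0.04 without it. In both, Activin A 3 was the lowest of the 6 libraries. NDUFB10 was at 56.3, 57.5 and 152 against 94.6, 81.3 and 82.6, with a fold change of -0.12 ± 0.37 that became -0.59 without Activin A 3. NDUFAF4 and SDHD, at -0.14 ± 0.11 and -0.09 ± 0.07, overlapped between the groups.

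Reporter cells under both treatments were set beside the first comparison without a test, since the tables are separate and the media differed in LIF. For all 15 members that passed in the knock-in against WT, the means with Activin A and with SB431542 both lay nearer to the knock-in mean than to the WT mean on the log2 scale. These 15 were selected by that difference, and the share among other genes that passed was not counted. COX7C, the nuclear member that fell, was at 32.95 ± 2.38 FPKM (SD, n = 3) with Activin A and 29.85 ± 2.69 with SB431542, beside 27.7 ± 4.79 in the knock-in and 44.9 ± 6.77 in WT.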

How the data were processed

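FPKM values were used as the authors deposited them, in 2 tables of 6 libraries each, one with knock-in and WT and the other with both treatments. Per the study's methods, the authors trimmed reads, aligned them to Ssc11.1 with Hisat2 (2.0.4 in the submitters' processing notes) and ran StringTie (1.3.3) with Ensembl annotation, and tested featureCounts (1.6.4) counts with DESeq2. Because the files hold FPKM, limma 3.58.1 with a variance trend in R 4.3.3 was run on log2(FPKM + 1), two-sided, with Benjamini-Hochberg adjustment over all genes with at least 0.1 FPKM in 3 libraries. The scale understates changes of low genes. An exact permutation test of 3 against 3 libraries cannot go below 0.1 and was not used for calls.

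Members, lists and tests were chosen with earlier results of these data known. Genes named are every mitochondrial member, all members that passed, the 5 largest rises and falls among nuclear members, the most abundant nuclear member of each complex, isoform pairs and up to 4 passing genes per list; 1 list is not reported here. Others, such as NDUFB2, NDUFS1 and POLG2, were chosen after their values were seen. Symbols come from the files. Coordinates are those of RefSeq's Sscrofa11.1, matched by symbol. Same-numbered Activin A and SB431542 libraries deviated together (r = 0.406, 0.603 and 0.553 across 12892 genes), so the numbers in the labels pair them, and the block is given where it changes a call. Nuclear copies of mitochondrial genes and pseudogenes of nuclear members could share reads. Alternatives were pseudocounts of 0.1 and 0.01, filters, TPM, median-ratio and quantile scaling, rescaling without mitochondrial genes, no trend, the block, and each library left out. Python 3.11.15 with pandas 2.3.3 and matplotlib 3.10.9 drew the figures.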

Additional observations from a re-analysis of the deposited data

How the results depend on the processing

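No member that passed changed direction in any alternative that was run; in Activin A against SB431542 the mitochondrial median and the log2 ratio difference, both near 0, changed sign when single libraries were left out. In the knock-in against WT, 12 nuclear members rose; 7 did without the filter and 3 with the replicate block, a pairing by number that the correlations of -0.01, 0.01 and 0.11 between same-numbered libraries do not bear out. The nuclear count that fell, 1, was 0 with a pseudocount of 0.01, without the filter and without the variance trend, 2 with a filter of 1 FPKM, with TPM and with rescaling without the mitochondrial genes, and 3 with quantile normalization. The mitochondrial count that fell, 2, was 0 without the filter, 7 with a filter of 1 FPKM, 4 with the rescaling, and 1 with quantile normalization and with the block. Quantile normalization also gave a mitochondrial median of -0.24, mitochondrial shares of 12.1% in the knock-in and 13.2% in WT, and a log2 ratio difference of -0.20. With the block, 1 nuclear member rose with Activin A. Leaving out single libraries gave 0 to 12 nuclear members that rose, 0 to 4 that fell and 0 to 2 mitochondrial members that fell in the knock-in, a median of 0.17 to 0.26 for nuclear and -0.56 to -0.41 for mitochondrial members, and a log2 ratio difference of -0.80 to -0.65. Mitochondrial shares were then 10.2% to 11.12% in the knock-in, 14.9% to 16.1% in WT, 10.2% to 10.8% with Activin A and 10.1% to 11.11% with SB431542. In Activin A against SB431542 no member passed without any library. The nuclear median was 0.06 to 0.11, the mitochondrial median -0.02 to 0.13 and the log2 ratio difference -0.15 to 0.03. The cause of these changes was not tested. Total depth is unknown, so counting error cannot be given for rare isoforms.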

Other observations

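Another 9 nuclear respiratory chain genes carry no symbol in the files and were matched by identifier only, so they were not members. Of these, NDUFA2, an accessory subunit of complex I, rose from 19.8, 20.5 and 22.1 FPKM in WT to 37.7, 32.4 and 31.9 in the knock-in (log2 fold change 0.68 ± 0.11 SE, limma adjusted p = 0.0193). UQCR11, a small subunit of complex III, rose from 29.2, 40.4 and 36.9 to 56.3, 62.1 and 48.7 (0.64 ± 0.15, limma adjusted p = 0.0442). SDHA, the flavoprotein of complex II, rose from 66.7, 56.7 and 63.7 to 84.6, 82.0 and 81.6 (0.41 ± 0.09, limma adjusted p = 0.0459). The other 6 did not pass, and none of the 9 fell, where 4.88% of all genes rose and 2.34% fell. UQCRFS1, the Rieske iron-sulfur protein, was lower in every knock-in library, at 46.1, 47.7 and 40.9 against 59.2, 56.9 and 47.9, with a limma adjusted p of 0.168.

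Proteins of the mitochondrial ribosome, which translates the 13 mitochondrial messages, are all nuclear. Of 67 tested, 5 rose in the knock-in and none fell, beside 4.88% and 2.34% of all genes, and 45 had a fold change above 0. MRPL28 had the largest rise, at 48.4 ± 2.65 FPKM against 25.1 ± 5.70 in WT (SD, n = 3; 0.94 ± 0.16 SE, limma adjusted p = 0.0215). MRPS12, MRPL11 and MRPS26 rose by 0.78, 0.72 and 0.67. None of the 67 passed in Activin A against SB431542 by limma, where 46 were above 0.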
